A study of Mus musculus with 4 samples.

Results

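Ucp1, Cidea, Prdm16, Dio2, Elovl3, Adrb3, Ebf2 and Cox8b are genes by which brown fat is told from white fat, and they are described here across the nuclei of 4 mouse hearts. They are 8 of the 21884 genes in the count matrices, and were chosen by symbol. In the GENCODE M21 annotation of GRCm38 they are protein-coding genes on chromosomes 4 (Prdm16), 7 (Cox8b), 8 (Adrb3 and Ucp1), 12 (Dio2), 14 (Ebf2), 18 (Cidea) and 19 (Elovl3), with Ucp1 at 83290352 to 83298452. The symbols were proposed with the Ucp1 count of each library already known, so Ucp1 is described without a test. The data are single-nucleus RNA counts, 1 library per whole heart, from male wild-type C57BL/6J offspring that were all injured at day 1 after birth and whose hearts were collected at 21 days after injury. The father had a prior injury in injured-father libraries 1 and 2 and had none in uninjured-father libraries 1 and 2. Hearts were snap frozen and nuclei were sorted with a Ter119 antibody to exclude blood cells, per the labels. No label says whether fat outside the heart wall was trimmed, or whether the hearts of a group came from different fathers.

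Brown fat cells burn fuel to make heat, while white fat cells store fat in a single large droplet and secrete hormones. Cold makes sympathetic nerves release noradrenaline, which acts on the beta-3 adrenergic receptor (Adrb3) of fat cells and raises cyclic AMP. Ucp1 then lets protons leak across the inner mitochondrial membrane, so that respiration gives heat in place of ATP. Rodents carry such fat around the aorta and in the mediastinum, close to the heart.

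After filtering and removal of doublets, 8251 and 9537 nuclei remained in injured-father libraries 1 and 2, and 9416 and 6791 in uninjured-father libraries 1 and 2. Median depth was 2129 and 2665 UMIs (unique molecules counted) per nucleus with injured fathers, against 2527.5 and 1860 UMIs with uninjured fathers. Clustering, from which the 8 genes were kept out of the variable genes, gave 24 clusters and 13 named classes. A single cluster was adipocyte-like, with all 8 fat cell markers detected and Acvr1c and Plin1 among its 10 leading genes. It held 172 and 115 nuclei with injured fathers, against 18 and 7 with uninjured fathers, at median depths of 2592 and 3537 against 2142 and 1950 UMIs. Between 77 and 92 barcodes of each library also occurred in another library, and 4 of the 426 Ucp1 UMIs of injured-father library 1 lay in such barcodes. With 2 libraries against 2, an exact permutation test allows 6 splits and no p under 0.333, so single values below are given with intervals and the tests are fits across all genes.

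In adipocyte-like nuclei Ucp1 stood at 668 CPM (UMIs per 1000000 UMIs of those nuclei; exact Poisson 95% interval 598 to 742) in injured-father library 1 and at 93.1 CPM (67.7 to 125) in injured-father library 2. It stood at 146 CPM (58.9 to 302) in uninjured-father library 1 and 135 CPM (16.4 to 488) in uninjured-father library 2. Injured-father library 1 was thus above the other 3 libraries, whose intervals overlap each other. With fat nuclei defined as those with at least 3 of 8 fat cell markers, the values were 517 and 64.4 CPM with injured fathers, against 29.1 and 21.1 CPM with uninjured fathers. Of the 29 and 15 nuclei so defined with uninjured fathers, 15 and 7 were in the cluster. A Ucp1 UMI was seen in 2 and 1 of them, the same numbers as in the cluster. The cluster values rest on 340 and 44 Ucp1 UMIs with injured fathers, against 7 and 2 with uninjured fathers, and such intervals cover counting error only. A Ucp1 UMI was seen in 116 of 172 nuclei (67.4%) and in 21 of 115 (18.3%) with injured fathers, against 2 of 18 and 1 of 7 with uninjured fathers. After thinning to 1000 UMIs per nucleus, which left out 4, 7, 2 and 0 shallower nuclei, the shares were 41.1% and 9.26% with injured fathers, against 12.5% and 14.3% with uninjured fathers. The share in nuclei outside this cluster was 0.517% and 0.0112% with injured fathers against 0.0115% and 0.0339% with uninjured fathers on the same thinned scale.

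Cidea, a lipid droplet protein of brown fat cells, stood at 937 CPM (854 to 1024) and 506 CPM (444 to 574) in the adipocyte-like nuclei of injured-father libraries 1 and 2. It was at 711 CPM (493 to 994) in uninjured-father library 1 and at 67.5 CPM, a single UMI, in uninjured-father library 2. The first and the last of these libraries lay furthest apart, and the 2 groups overlapped.

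The transcription factors that set brown fat identity did not share 1 pattern. Prdm16, a zinc finger coregulator that holds brown fat cells in their state, stood at 1722 CPM (1610 to 1840) and 472 CPM (412 to 538) with injured fathers, against 607 CPM (406 to 871) and 945 CPM (517 to 1586) with uninjured fathers. Ebf2, which marks the brown fat lineage and opens its gene program, stood at 1649 CPM (1540 to 1765) and 1712 CPM (1596 to 1834) with injured fathers, against 1736 CPM (1383 to 2153) and 1350 CPM (825 to 2085) with uninjured fathers. Prdm16 was thus highest in injured-father library 1, apart from the intervals of the other 3 libraries, while all 4 Ebf2 intervals overlapped.

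Of the signalling genes, Adrb3 stood at 185 CPM (149 to 226) and 254 CPM (211 to 304) in adipocyte-like nuclei with injured fathers, against 105 CPM (34.0 to 244) and 338 CPM (110 to 788) with uninjured fathers. Dio2, the deiodinase that makes active thyroid hormone inside brown fat cells, had 15 and 8 UMIs in the injured-father libraries, against 1 and 0 in the uninjured-father libraries. These counts stood at 29.45 and 16.9 CPM, against 20.9 and 0 CPM. Among the metabolic genes, Cox8b, a cytochrome oxidase subunit, had 34 and 26 UMIs with injured fathers, against 3 and 0 with uninjured fathers. Its levels were 66.8 and 55.0 CPM, against 62.8 and 0 CPM. Elovl3, a fatty acid elongase that cold induces in brown fat, had 0 and 1 UMIs in the injured-father libraries, against 0 and 0 in the uninjured-father libraries. A count of 0 in injured-father library 1 allows Elovl3 up to 5.89 CPM at 3 counts, and the 4 libraries held 3 Elovl3 UMIs in all nuclei. Both groups overlapped in each of these 4 genes, and the 18 and 7 adipocyte-like nuclei of the uninjured-father libraries leave wide intervals.

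**Figure D1:**
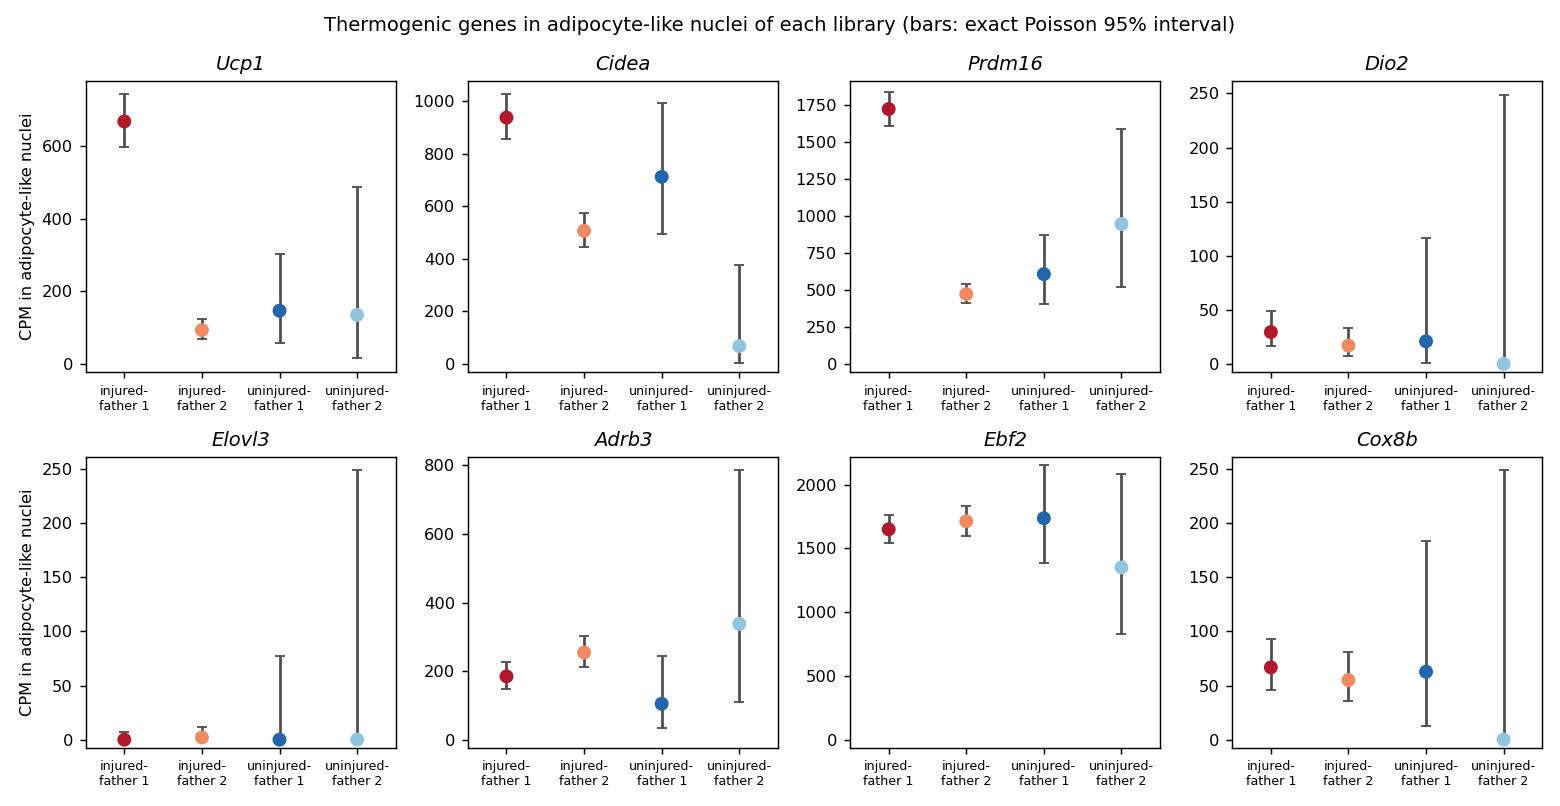
Level of each of the 8 genes in the adipocyte-like nuclei of each library, in CPM on a linear axis that differs between panels, with exact Poisson 95% intervals as bars. Ucp1 in injured-father library 1 (668 CPM) stands above the other 3 libraries, Ebf2 is level across all 4, and the uninjured-father intervals are wide.

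Promoter sequences were at hand for 4 of the 8 genes (RefSeq, build GRCm38.p6). They are shown for Ucp1 and Prdm16, since Prdm16 was higher in adipocyte-like nuclei with a Ucp1 UMI than in those without in both injured-father libraries, and for Dio2, which on 15 and 8 UMIs showed no order that held in both. Each line gives the 250 bases before the RefSeq transcription start, 5′ to 3′ on the strand of the gene, with letters that match a searched motif in capitals. Ucp1 lies at chr8:83290098-83290347 on the plus strand, Prdm16 at chr4:154636874-154637123 on the minus strand, and Dio2 at chr12:90739039-90739288 on the minus strand.
Ucp1: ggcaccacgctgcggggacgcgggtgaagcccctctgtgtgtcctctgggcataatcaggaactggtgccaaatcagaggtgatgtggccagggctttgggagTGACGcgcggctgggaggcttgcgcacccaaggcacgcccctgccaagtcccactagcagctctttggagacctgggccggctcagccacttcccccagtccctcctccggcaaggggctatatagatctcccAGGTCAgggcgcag
Prdm16: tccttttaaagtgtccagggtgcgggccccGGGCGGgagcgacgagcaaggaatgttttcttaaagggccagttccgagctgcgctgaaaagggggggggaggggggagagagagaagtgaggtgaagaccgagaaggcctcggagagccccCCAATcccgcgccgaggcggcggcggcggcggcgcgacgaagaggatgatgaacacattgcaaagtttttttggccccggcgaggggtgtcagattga
Dio2: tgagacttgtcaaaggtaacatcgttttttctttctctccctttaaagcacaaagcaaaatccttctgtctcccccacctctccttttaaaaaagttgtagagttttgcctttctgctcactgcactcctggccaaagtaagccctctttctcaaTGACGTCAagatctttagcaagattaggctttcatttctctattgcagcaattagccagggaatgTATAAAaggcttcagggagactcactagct
The motifs searched on both strands were TGACG, the core of the cyclic AMP response element, TGACGTCA, its full form, AGGTCA, the core of nuclear receptor sites, the PPAR response element, TCAAGGTCA for ERR, CCCNNGGG for EBF, the TATA box TATAAA, the GC box GGGCGG, and CCAAT for the box of that name. The Ucp1 stretch holds TGACG at -147 to -143 and AGGTCA at -14 to -9, counted back from the start. The Dio2 stretch holds the full TGACGTCA at -95 to -88, in which TGACG also lies on both strands, and TATAAA at -30 to -25. The Prdm16 stretch holds GGGCGG and also CCAAT, and no other of these. Among 32851 stretches of the same length, TGACG was present in 17.8%, TGACGTCA in 1.55%, AGGTCA in 14.0%, TATAAA in 12.4%, GGGCGG in 32.7% and CCAAT in 33.8%. These matches describe letters and say nothing of binding.

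Most UMIs of Ucp1, Adrb3 and Cidea in the injured-father libraries lay in adipocyte-like nuclei, and most of those of Prdm16, Ebf2, Cox8b and Dio2 lay elsewhere. In injured-father libraries 1 and 2 together, adipocyte-like nuclei held 81.2% of Ucp1, 79.0% of Adrb3, 60.8% of Cidea and 18.5% of Dio2 UMIs, against 1.74% of all UMIs. The same nuclei held 5.28% of Prdm16, 4.97% of Ebf2 and 3.57% of Cox8b UMIs. In the uninjured-father libraries, where adipocyte-like nuclei gave 0.133% of all UMIs, they held 60.0% of Ucp1, 52.6% of Adrb3 and 11.7% of Cidea UMIs.

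Prdm16 was at 472 to 1722 CPM in adipocyte-like nuclei over the 4 libraries, against 659 to 768 CPM in cardiomyocyte-like nuclei. Smooth muscle-like nuclei were at 593 to 784 CPM and Schwann or glial-like nuclei at 460 to 683 CPM, and these 4 classes, the highest for Prdm16, had overlapping ranges. Ebf2 was highest in pericyte-like nuclei (2090 to 2230 CPM), next in fibroblast-like nuclei (1659 to 2002 CPM) and then in adipocyte-like nuclei (1350 to 1736 CPM). Pericyte-like and fibroblast-like ranges did not overlap, while those of fibroblast-like and adipocyte-like nuclei did. Cox8b was at 30.7 to 38.9 CPM in vascular endothelial-like and 20.9 to 45.7 CPM in cardiomyocyte-like nuclei. In adipocyte-like nuclei it was at 66.8 and 55.0 CPM with injured fathers, against 62.8 and 0 CPM with uninjured fathers. The adipocyte-like range overlaps those 2 ranges only through uninjured-father library 2, where 7 nuclei had 0 UMIs (0 to 249 CPM). Dio2 outside fat was highest among classes of over 1000 nuclei in fibroblast-like nuclei, at 3.78 to 6.21 CPM. Cidea was at 8.57 to 14.1 CPM in cardiomyocyte-like nuclei, below every adipocyte-like value. For Ucp1, Cidea and Adrb3 each library's adipocyte-like value exceeded every value of every other class. In uninjured-father library 2 these values rest on 2, 1 and 5 UMIs. The Cidea interval there (1.71 to 376 CPM) takes in values of other classes, which reached 20.5 CPM.

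**Figure D2:**
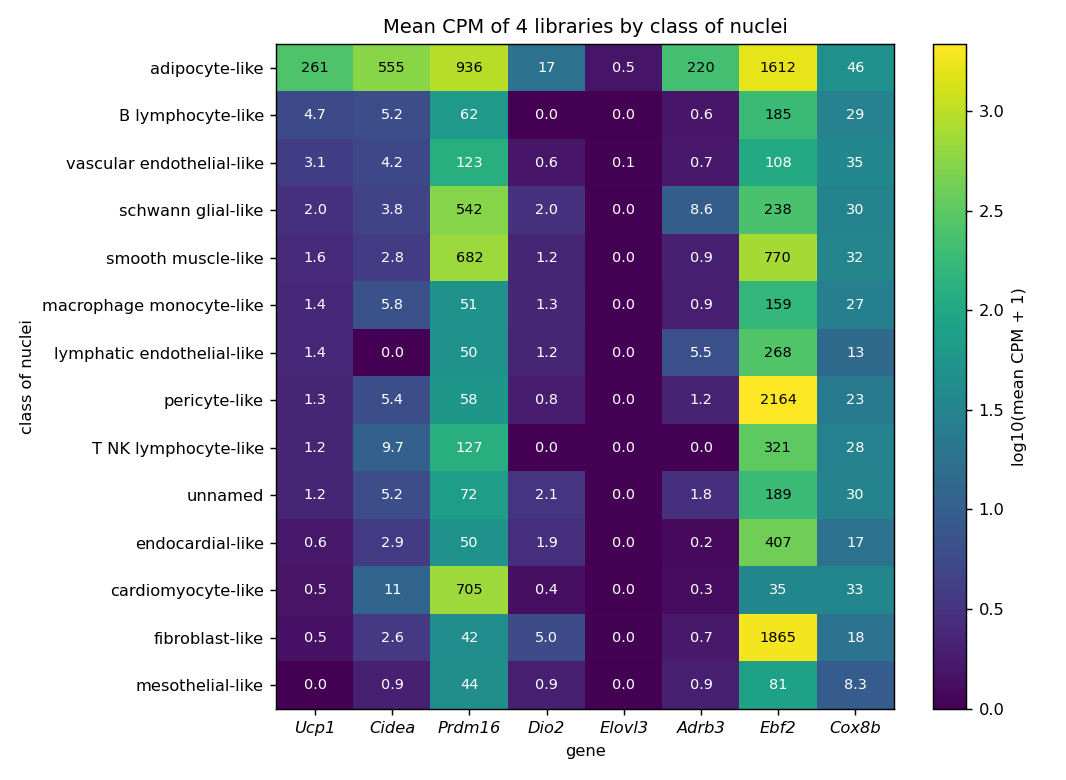
Mean CPM over the 4 libraries of each gene (columns) in each class of nuclei (rows), coloured by log10 of the mean CPM plus 1. Ucp1, Cidea and Adrb3 are high in adipocyte-like nuclei only, whereas Prdm16 is also high in cardiomyocyte-like (705) and Ebf2 in pericyte-like (2164) and fibroblast-like nuclei (1865).

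Outside adipocyte-like nuclei Ucp1 had 86 UMIs in injured-father library 1, against 3 UMIs in each of the other 3 libraries. Of those 86, 31 lay in vascular endothelial-like nuclei, at 10.5 CPM (7.11 to 14.9), and 19 in cardiomyocyte-like nuclei, at 1.92 CPM. The highest level there was in B lymphocyte-like nuclei, at 14.5 CPM (5.32 to 31.6) on 6 UMIs. The fat cell gene Plin1 was at 2.70 CPM (1.17 to 5.32) in the same vascular endothelial-like nuclei and at 1.41 CPM in the same cardiomyocyte-like nuclei. In the B lymphocyte-like nuclei Plin1 had 1 UMI, while the fat cell gene Cidec had 6 UMIs, at 14.5 CPM like Ucp1. In adipocyte-like nuclei of that library Ucp1 and Plin1 were at 668 and 546 CPM. A Ucp1 UMI was seen in 1.65% of the vascular endothelial-like nuclei, whose median depth was 1416 UMIs, and in 0.996% of the cardiomyocyte-like nuclei, whose median depth was 4356.5 UMIs. What part RNA released from other nuclei has in these counts was not tested.

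Within the adipocyte-like cluster, nuclei with a Ucp1 UMI carried more Cidea, Prdm16 and Ebf2 and, in both injured-father libraries, less Adrb3 than nuclei without. Because Ucp1 itself made this split, and nuclei of a library are not replicates, values are given with intervals and no test. Nuclei with a Ucp1 UMI were deeper, with medians of 2715 against 2302 UMIs in injured-father library 1 and 4399 against 3328 in injured-father library 2. Cidea stood at 1143 CPM (1034 to 1260) with Ucp1 and 465 CPM (364 to 585) without in injured-father library 1, and at 1167 CPM (965 to 1398) and 328 CPM (272 to 391) in injured-father library 2. Prdm16 stood at 2009 CPM with and 1065 CPM without in injured-father library 1, and at 748 and 398 CPM in injured-father library 2. Ebf2 stood at 1942 CPM with and 981 CPM without in injured-father library 1, and at 2323 and 1548 CPM in injured-father library 2. The intervals of Cidea, Prdm16 and Ebf2 were apart in both libraries.

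Adrb3 ran the other way, at 152 CPM (115 to 199) with Ucp1 against 258 CPM (184 to 351) without in injured-father library 1, where the intervals overlap. In injured-father library 2 it was at 49.9 CPM (16.2 to 116) with against 309 CPM (255 to 371) without, intervals that are apart. Cox8b was at 84.7 CPM with Ucp1 and 25.8 CPM without in injured-father library 1, and at 79.8 and 48.4 CPM in injured-father library 2, with overlapping intervals in both. Dio2, at 31.0 against 25.8 CPM and 10.0 against 18.8 CPM, showed no order that held in both libraries. Of the 116 Ucp1 nuclei of injured-father library 1, 55 carried UMIs of 3 of the other 7 genes and 43 of 4, and of the 21 in injured-father library 2 these were 7 and 10. Among the shallower nuclei without a Ucp1 UMI they were 23 and 6 of 56 in injured-father library 1, and 18 and 17 of 94 in injured-father library 2.

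Over all genes with a UMI in these nuclei, Ucp1 left out, 52.3% of 12732 were higher with Ucp1 in injured-father library 1, and 1.64% were higher and 2.39% lower with intervals apart. In injured-father library 2, 42.1% of 12740 genes were higher, and 2.47% were higher and 2.32% lower with intervals apart. Of 27 other brown fat genes in the matrices, 23 were higher with Ucp1 in injured-father library 1, 9 of them with intervals apart, and 19 were higher in injured-father library 2, 13 of them with intervals apart. In the same order of libraries 1 and 5 were lower, and 3 had no UMI in each. Ntrk3, a neurotrophin receptor, stood at 2890 CPM with Ucp1 against 923 CPM without in injured-father library 1, and at 2184 against 414 CPM in injured-father library 2. Ppara, a nuclear receptor of fatty acid oxidation, stood at 3042 against 1271 CPM and at 6072 against 1776 CPM, in the same order. Of 16 white fat genes, 8 were lower and 1 was higher with Ucp1 in injured-father library 1, and 7 had no UMI. In injured-father library 2, 9 were lower, 1 was higher and 6 had no UMI. With intervals apart, 5 and 4 were lower in injured-father libraries 1 and 2, and 0 were higher in either. Slc7a10, an amino acid transporter used as a white fat marker, was at 5.64 CPM with Ucp1 against 277 CPM without in injured-father library 1, and had 0 UMIs with Ucp1 against 201 UMIs (540 CPM) without in injured-father library 2. Retn, the hormone resistin of white fat cells, had 0 UMIs with Ucp1 in both libraries, against 18 and 61 UMIs without. Of 8 genes common to both kinds of fat, 4 were higher and 4 lower in injured-father library 1, and 3 higher and 5 lower in injured-father library 2. With intervals apart, 0 were higher and 2 lower in injured-father library 1 (Plin4 and Tshr), and 1 was higher (Lipe) and 2 lower (Acvr1c and Tshr) in injured-father library 2. Plin1, a lipid droplet coat protein, stood at 567 against 497 CPM and 808 against 645 CPM, and Acvr1c, an activin receptor, at 508 against 658 CPM and 349 against 1053 CPM.

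Genes next to these in fat biology were counted in the same split as higher and lower with Ucp1, and the rest of each list had no UMI there. In injured-father library 1 the counts were 10 and 4 of 16 adrenergic signalling genes, 6 and 4 of 12 thyroid signalling genes, 5 and 4 of 12 fatty acid elongation genes, and 6 and 6 of 13 lipid droplet genes. They were 12 and 1 of 14 cytochrome oxidase isoform genes, 5 and 2 of 7 uncoupling and carrier genes, 9 and 8 of 19 regulators around Ebf2 and Prdm16, 5 and 3 of 8 genes of heat production without Ucp1, and 3 and 0 of 8 beige fat genes. In injured-father library 2 they were 11 and 4, 6 and 3, 3 and 6, 5 and 6, 8 and 4, 3 and 4, 11 and 8, 2 and 4, and 2 and 1 in the same order of lists. Most of these genes had overlapping intervals. With intervals apart, cytochrome oxidase isoforms had 1 higher and 0 lower in injured-father library 1, and 0 and 0 in injured-father library 2. Adrenergic genes had 4 and 2, then 4 and 1, and the regulators 4 and 1, then 3 and 2. Each other list had at most 2 higher and 2 lower in either library. Gnas, the G protein subunit that raises cyclic AMP, stood at 3059 against 1265 CPM in injured-father library 1 and 2981 against 967 CPM in injured-father library 2. Elovl6, an elongase, stood at 1786 against 929 CPM and 309 against 69.9 CPM, and Esrrg, an orphan nuclear receptor, at 4129 against 1671 CPM and 3220 against 1083 CPM. Adcy5, of the same adrenergic list as Gnas, ran the other way, at 39.5 against 406 CPM and 29.9 against 167 CPM.

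**Figure D3:**
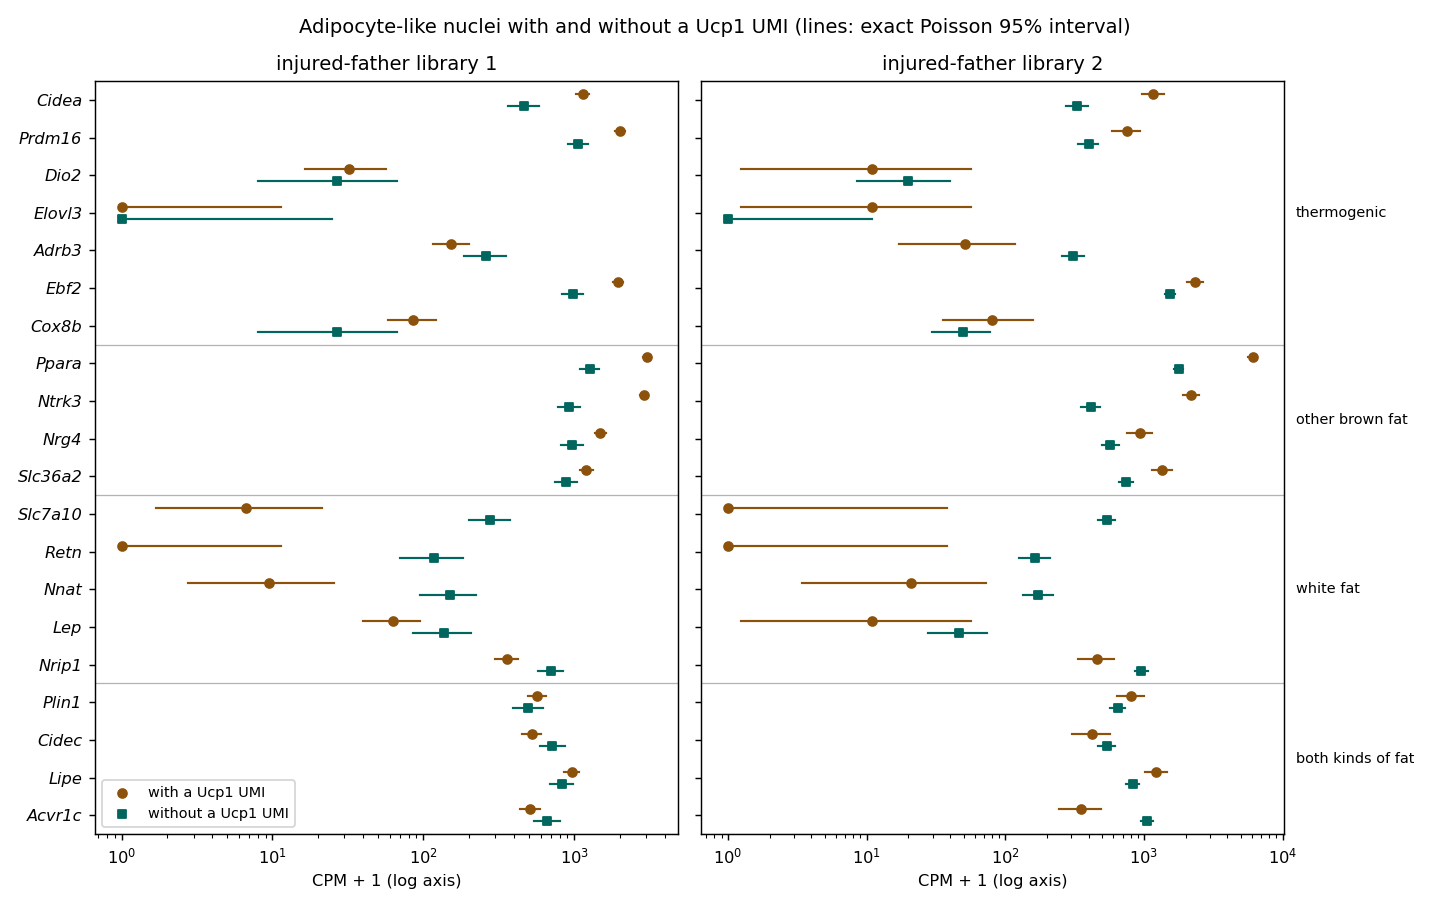
CPM plus 1 on a log axis in adipocyte-like nuclei with a Ucp1 UMI (brown circles) and without (green squares), in each injured-father library, with exact Poisson 95% intervals. Cidea, Ntrk3 and Ppara lie higher with Ucp1, Slc7a10, Retn and Nnat lie higher without, and of the genes common to both kinds of fat Acvr1c lies higher without Ucp1 in injured-father library 2 (349 CPM with and 1053 CPM without).

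Ucp1 or Cidea on 1 side and Slc7a10 or Retn on the other were found together in 4 nuclei, all in injured-father library 1. These 2 white fat genes were picked for this view after their values were seen, so the counts are a description. In injured-father library 1, 138 of 172 adipocyte-like nuclei had a UMI of Ucp1 or Cidea only, 19 of Slc7a10 or Retn only, 4 of both sides and 11 of neither. In injured-father library 2 the numbers were 44, 63, 0 and 8 of 115 nuclei. In uninjured-father library 1 they were 8, 6, 0 and 4 of 18, and in uninjured-father library 2 they were 1, 3, 0 and 3 of 7. Nuclei on the brown side thus outnumbered the other side in injured-father library 1 and uninjured-father library 1, and were fewer in injured-father library 2 and uninjured-father library 2.

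The 23 nuclei of injured-father library 1 with Slc7a10 or Retn had a median depth of 3358 UMIs and carried Cidea at 57.0 CPM, against 1120 CPM in the other 149. In injured-father library 2 the 63 such nuclei, at a median depth of 3804 UMIs, had 0 Cidea and 0 Ucp1 UMIs, against 239 and 44 UMIs in the other 52. Adrb3 was at 262 against 168 CPM in injured-father library 1 and at 365 against 108 CPM in injured-father library 2, and was thus found on both sides. Prdm16 was at 684 against 1938 CPM and at 190 against 842 CPM, and Ebf2 at 558 against 1876 CPM and at 1256 against 2311 CPM, so neither was at 0 in the nuclei with Slc7a10 or Retn.

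**Figure D4:**
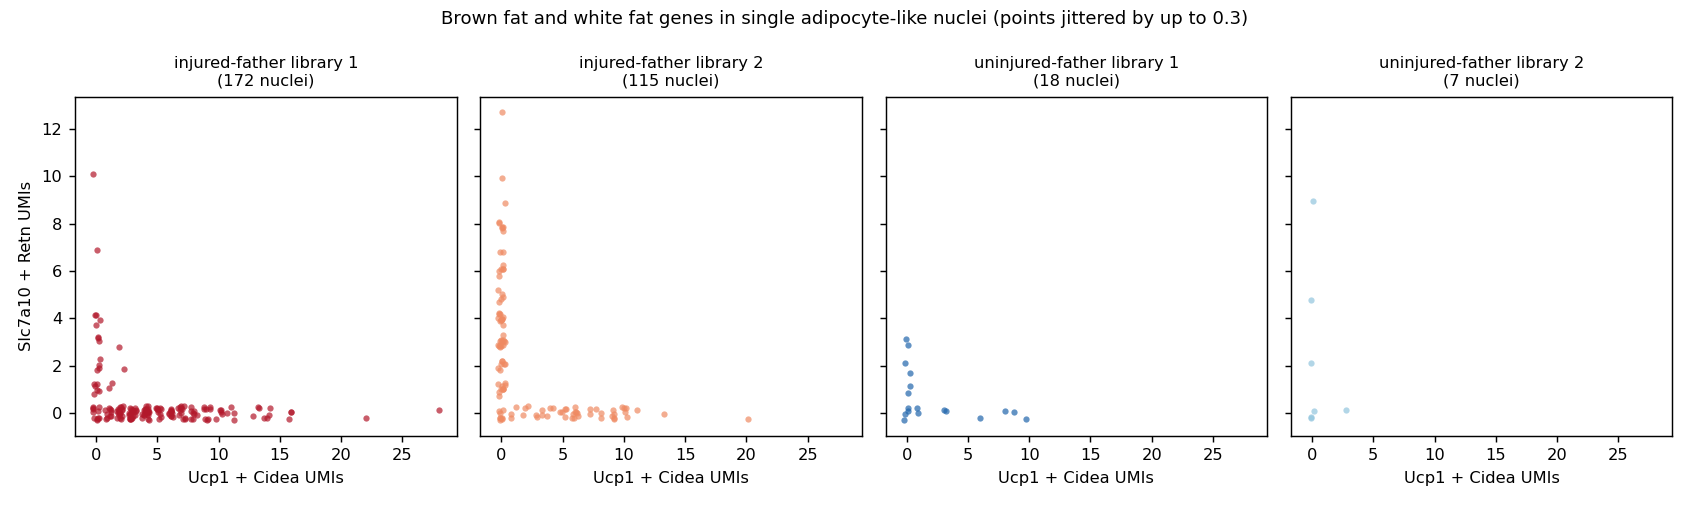
Each point is an adipocyte-like nucleus, placed by its summed Ucp1 and Cidea UMIs (horizontal) and its summed Slc7a10 and Retn UMIs (vertical), with 1 panel per library and a jitter of the points. Nuclei lie along the 2 axes, and only 4 nuclei, all in injured-father library 1, have UMIs on both.

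By the ratio of CPM plus 20 in Ucp1 nuclei over the rest of the adipocyte-like nuclei of injured-father library 1, the genes most like Ucp1 among 3540 genes with at least 30 UMIs were Lgr6, Dhrs9, Nt5m, Coq8a, Apoo, Zfp974, Ntrk3, Xkr6, Aspg and Gk. Their ratios there ran from 3.01 (Gk) to 4.97 (Lgr6), and in injured-father library 2, which did not choose them, from 0.993 (Zfp974) to 5.08 (Ntrk3), with 9 of 10 above 1, as were 51.0% of the 3540 genes. Dhrs9 rests on 5 UMIs in injured-father library 2. At the other end Slc7a10 was lowest, followed by Chsy1, Gulp1, Cachd1, Adcy5, Igf1, Me1, Sntb1, Ptger3 and Trabd2b, and all 10 had ratios under 1 in injured-father library 2 as well, where 49.0% of the 3540 genes did. Across 52 sums of a class in a library, all sharing library and depth, the log levels most like that of Ucp1 were those of Lep (r = 0.951), Klhdc7a, Slc25a48, Cfap221, Clstn3, Syt12, Snhg11, Gpd1, Ccdc144b and Otop1. Among the 8 genes r was 0.908 for Cidea, 0.828 for Adrb3, 0.745 for Dio2, 0.427 for Elovl3, 0.384 for Prdm16, 0.3003 for Cox8b and 0.245 for Ebf2. Elovl3 had 3 UMIs in all nuclei of the 4 libraries, 1 of them in adipocyte-like nuclei, too few to place it among the others. Only sums of at least 20 nuclei entered, so the adipocyte-like sums were those of injured-father libraries 1 and 2 only. Ucp1 was at 668 and 93.1 CPM in these and at most at 14.5 CPM in any other sum, so r rests mainly on them. The first measure looks within fat nuclei and the second across classes. Lep, the hormone leptin, led the second and yet was at 62.1 CPM with Ucp1 against 136 CPM without in injured-father library 1, and 9.97 against 45.7 CPM in injured-father library 2, with overlapping intervals.

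Between fathers, Adrb3 rose in the hearts of offspring of injured fathers when all nuclei of a library were summed, and none of Cidea, Prdm16, Dio2, Ebf2 and Cox8b passed the threshold. Adrb3 had 117 and 154 UMIs with injured fathers, against 9 and 10 UMIs with uninjured fathers, and stood at 4.87 and 4.73 against 0.298 and 0.621 scaled CPM. The difference was 3.48 on the log2 scale, with a standard error of 0.38 (adjusted p = 0.0308, edgeR quasi-likelihood test over 14891 genes). Adrb3 was the 1 gene called among these 6, where 0.101% of all genes were called, and Elovl3 did not pass the filter on low counts. The adjusted p was 0.499 without uninjured-father library 1 and 0.473 without uninjured-father library 2. Within adipocyte-like nuclei Adrb3 averaged 219 ± 49.1 CPM with injured fathers and 221 ± 165 CPM with uninjured fathers (SD, n = 2 each), while those nuclei numbered 172 and 115 against 18 and 7.

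Markers of fat cells moved in the same sums. Adipoq, Plin1, Cidec and Acvr1c, 4 of the 8 fat cell markers, were higher with injured fathers at adjusted p of 0.0221, 0.0127, 0.0147 and 0.0127 (edgeR). The summed level of the 8 markers was 148 and 188 CPM with injured fathers against 93.7 and 134 CPM with uninjured fathers, with no marker at 0. Msln and Muc16, 2 of the 7 markers of the mesothelium that lines the heart, rose as well, and their list summed to 59.6 and 61.1 CPM against 21.4 and 27.7 CPM. Mesothelial-like nuclei numbered 54 and 60 with injured fathers, against 9 and 6 with uninjured fathers. Without the adipocyte-like nuclei the Adrb3 values were 0.981 and 1.06 against 0.132 and 0.310 scaled CPM, 2.33 apart on the log2 scale (SE 0.52, edgeR adjusted p = 0.405), and 0 of 6 members tested were called where 0.0135% of 14853 genes were. There 986 genes had an unadjusted p under 0.05, and DESeq2 called 57 genes and none of the members. Adrb3 outside adipocyte-like nuclei was called with no filter on low counts (edgeR adjusted p = 0.0471) and with the replicate block (0.0276). Over all nuclei no gene was called without uninjured-father library 1 or without uninjured-father library 2, so that the calls of the fat cell and mesothelial markers were lost there too.

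Ucp1 over all nuclei was at 18.1 CPM in injured-father library 1 and 1.43 CPM in injured-father library 2, against 0.318 and 0.319 CPM in uninjured-father libraries 1 and 2. These values rest on 426 and 47 UMIs with injured fathers, against 10 and 5 with uninjured fathers. Of the 426 and 47 UMIs, 340 and 44 lay in adipocyte-like nuclei, which numbered 172 and 115 against 18 and 7. Cidea was at 29.8 and 14.1 against 6.46 and 6.46 scaled CPM, a difference of 1.76 on the log2 scale (SE 0.33) that missed the threshold (adjusted p = 0.228, edgeR), though it passed it in 5 of 9 alternative fits. Dio2 was at 2.46 and 2.00 against 1.46 and 1.24 scaled CPM (log2 fold change 0.70, adjusted p = 0.730, edgeR). Cidea, Dio2 and Adrb3 were higher in both injured-father libraries than in both uninjured-father libraries, an order that 17.6% of all genes tested showed. Prdm16, Ebf2 and Cox8b had log2 fold changes of -0.09, -0.08 and 0.05, with standard errors of 0.15, 0.12 and 0.25, and their groups overlapped in scaled CPM. In unscaled CPM Ebf2 was at 567 and 604 with injured fathers, against 607 and 618 with uninjured fathers.

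In classes large enough to test, no member was called between fathers in the main tests. Ucp1 is given here without a test, and no other member was called there in any of the alternatives. Of the members that passed the filter, 4 were tested in cardiomyocyte-like nuclei, 5 in fibroblast-like, 4 in vascular endothelial-like and 3 in pericyte-like nuclei, where 0.00799%, 0.00804%, 0% and 0.0598% of all genes were called. The unadjusted p was under 0.05 for 523, 391, 484 and 432 genes in the same order of classes, and DESeq2 called 21, 6, 2 and 2 genes and none of the members. In cardiomyocyte-like nuclei Prdm16 was at 770 and 667 against 739 and 648 scaled CPM, 0.05 apart on the log2 scale (SE 0.14, edgeR adjusted p = 0.999). In pericyte-like nuclei Ebf2 was at 2140 and 2149 against 2290 and 2167 scaled CPM, -0.06 apart on the log2 scale (SE 0.14, edgeR adjusted p = 0.999). Cidea in vascular endothelial-like nuclei was at 7.87 and 5.39 against 2.37 and 1.55 scaled CPM (log2 fold change 1.66, adjusted p = 0.993, edgeR), and in fibroblast-like nuclei at 5.92 and 2.21 against 1.45 and 0.842 scaled CPM (1.66, adjusted p = 1.00, edgeR).

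Over all nuclei the other fat lists held few called genes. Of the lists of other brown fat (25 tested), white fat (12) and beige fat (7) genes, none had a called gene, and their median log2 fold changes were 0.04, 0.39 and 0.28 beside -0.01 over all genes. Prkar2b, a regulatory subunit of the cyclic AMP-dependent kinase, was the 1 called gene of 15 adrenergic signalling genes tested, at 70.9 and 43.7 against 13.6 and 10.99 scaled CPM (2.21 on the log2 scale, SE 0.24, edgeR adjusted p = 0.0308). In adipocyte-like nuclei of the injured-father libraries Prkar2b stood at 2111 CPM, against 14.7 CPM in nuclei outside that cluster. Cidec and Plin1 were the 2 called genes of 13 lipid droplet genes, and there were none among 10 thyroid signalling, 10 fatty acid elongation, 13 cytochrome oxidase isoform, 7 uncoupling and carrier, 19 regulator and 8 other heat production genes. At an unadjusted p under 0.05, 1041 of the 14891 genes passed, and DESeq2 called 98 genes in the same sums.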

How the data were processed

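Single nuclei of 4 hearts were profiled by droplet capture with 3' end counting, at a target of 10000 nuclei per library, per the labels' protocols. The authors deposited raw UMI counts for each gene and barcode, and the file headers name Cell Ranger 6.0.1. Seurat 4.0 is named in the submitters' processing notes. The genome build behind the counts was not given in the sources used here, and gene positions, where used, are from GENCODE M21 (GRCm38), which holds 21779 of the 21884 identifiers.

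Barcodes with under 500 UMIs, under 300 genes or 5% or more mitochondrial UMIs were dropped, as were doublets marked by Scrublet (9.62% to 14.9% per library). With scanpy 1.11.5, counts were scaled to 10000 per nucleus and logged, 3000 variable genes without the 8 members and 30 components were taken, and Leiden clusters (leidenalg 0.10.2, 20 neighbours, resolution 1.0) were named by the best of 18 marker lists, with 20 CPM added and at least 3 markers needed. Erythroid-best clusters stayed unnamed. Class names are rebuilt here, and no deposited annotation was used. The library was the unit of replication. Counts summed per library were tested with edgeR 4.0.16 (R 4.3.3, TMM, minimum count 10, quasi-likelihood test, Benjamini-Hochberg adjustment, threshold 0.05, two-sided), and scaled CPM are TMM values. Standard errors (SE) were derived as the size of the log2 fold change over the square root of F. DESeq2 1.42.0, RLE scaling, no filter, each library left out, a replicate block and doublets kept were alternatives for the tests. Doublets kept, members among the variable genes, resolution 2, at least 1000 UMIs, and a definition of fat nuclei by 3 of 8 markers were alternatives for the fat nuclei. The edgeR code was tested on simulated data. Counting intervals are exact Poisson or exact binomial at 95%. The labels do not say that libraries of a group come from separate litters, so p-values measure only the spread between these hearts.

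All 8 members are named, and from each of the 12 other lists up to 4 genes by level in the adipocyte-like nuclei of the injured-father libraries or any called gene. Members and lists were chosen with earlier results of these data known. UMI levels are not scaled by gene length, so levels of different genes, where printed side by side, are not read as a ranking of genes.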

Additional observations from a re-analysis of the deposited data

How the results depend on the processing

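Few fat nuclei with uninjured fathers and 2 hearts per group limit these results. Leaving out each library in turn gave 0 to 542 called genes over all nuclei, 0 to 453 without adipocyte-like nuclei, 0 to 58 in cardiomyocyte-like, 2 to 140 in fibroblast-like, 23 to 79 in vascular endothelial-like and 4 to 19 in pericyte-like nuclei, against 15, 2, 1, 1, 0 and 6 in the main tests. The single values over all nuclei were 265 and 542 without injured-father libraries 1 and 2, and 0 and 0 without uninjured-father libraries 1 and 2. In the same order of nuclei, DESeq2 called 98, 57, 21, 6, 2 and 2 genes, no filter on low counts 196, 219, 182, 38, 37 and 15, and the replicate block 210, 287, 44, 13, 1 and 10. Libraries of the same number did not deviate together (r = 0.088 over 14891 genes), so the number is not taken as a pairing. Under the block Adrb3 and Cidea over all nuclei had adjusted p of 0.000197 and 0.000547 (edgeR). Doublets kept gave 2 called genes in cardiomyocyte-like, 4 in fibroblast-like and 2 in pericyte-like nuclei. The log2 fold change over all nuclei changed sign without injured-father library 2 and without uninjured-father library 1 for Prdm16 (0.030 and 0.065, range over the left-out libraries -0.238 to 0.065) and for Cox8b (-0.363 and -0.141, range -0.363 to 0.373). Adrb3 kept its sign in all 9 alternatives (log2 fold change 2.94 to 3.99, adjusted p 1.2e-10 to 0.499) and was called in 7 of them. Cidea over all nuclei had a log2 fold change of 1.13 to 2.21 (adjusted p 9.4e-20 to 0.998). Ucp1 in adipocyte-like nuclei of injured-father library 1 was 532 CPM with doublets kept, among 221 nuclei. With fat nuclei defined by 3 of 8 markers it was 517 CPM there, with 69.7% of the library's Ucp1 UMIs, 64.4 CPM in injured-father library 2 and 29.1 CPM in uninjured-father library 1. That definition gave 29 and 15 fat nuclei in uninjured-father libraries 1 and 2. Under each alternative definition of the fat nuclei tried, Ucp1 CPM was highest in injured-father library 1. The cause of these differences was not tested.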
